A study of Mus musculus with 22 samples.

Results

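The double mutant W330R-R181E of DNMT3A was compared with the single mutant W330R at day 4 of adipocyte differentiation. The libraries were chosen by the genotype and the day in their labels, which gave 4 of the 22 libraries of the series, 2 per genotype. RNA was sequenced from mouse C3H 10T1/2 cells, mesenchymal cells able to form adipocytes, that express WT, W330R or W330R-R181E DNMT3A1. The series asks what these forms of the enzyme do to gene expression while the cells differentiate. All genotypes received isobutylmethylxanthine, dexamethasone, insulin and troglitazone for the first 2 days and medium with insulin from then on. In W330R, 1 amino acid of the PWWP domain is changed, and W330R-R181E carries this change together with one in the N-terminal region. The labels name the second change R181E, whereas the column names of all 6 double mutant libraries say R181A, and R181E is used here as in the labels. WT cells at day 4, also with 2 libraries, are given for reference.

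DNMT3A adds methyl groups to cytosines in CG dinucleotides that were not methylated before, a step known as de novo methylation. Its PWWP domain reads methylated H3K36 and thereby guides the enzyme to chromatin. Its N-terminal region can bind nucleosomes that carry ubiquitin on histone H2A, a mark set by Polycomb complexes at silenced developmental genes.

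Some features limit these groups as models. The labels give neither the promoter nor the species of the expressed DNMT3A, and they do not say whether replicates come from separate cell lines or cultures. P-values therefore measure only the spread between replicate libraries, which may be technical. That spread was estimated over the 18 libraries of days 2, 4 and 6. The labels do not say whether the endogenous Dnmt3a gene was kept, and counts per gene do not tell it from the expressed DNMT3A. DNA methylation was not measured in these libraries.

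The libraries of W330R held 14224351 and 25352281 counts and those of W330R-R181E held 15642443 and 22710246, within a range of 8859501 to 47453908 over the series. Replicate 1 was the shallower library in both genotypes. Levels are given as CPM, counts-per-million of the library total after TMM scaling, and values for replicate 1 precede those for replicate 2. A count of 3 in a library, a floor that covers counting error only, stands for 0.211 and 0.118 CPM in W330R and for 0.192 and 0.132 CPM in W330R-R181E before that scaling. Replicates of W330R differed by a median of 0.213 on the log2 scale over all genes tested, and those of W330R-R181E by 0.264. Between the genotypes the median difference of 2 libraries lay between 0.252 and 0.343. For most genes the genotypes were thus hardly further apart than replicates.

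Marker genes were checked against the labelled cell type. The 12 markers of mesenchymal stromal cells summed to 11232 and 10381 CPM in W330R and to 12209 and 9145 CPM in W330R-R181E, with Vim, an intermediate filament gene, the most abundant. The 11 adipocyte markers tested, led by the fatty acid carrier Fabp4, summed to 1953 and 2423 CPM in W330R, 3399.6 and 3118 CPM in W330R-R181E, and 4962 and 6229.5 CPM in WT. Neither mutant overlapped WT, and both libraries of W330R-R181E lay above those of W330R. The 3 leukocyte markers tested summed to at most 6.72 CPM in any day 4 library, and Tyrobp was at 0 in all 6. Of 10 endothelial markers 4 passed the filter, and of 10 epithelial markers 3, while Cdh5, Cldn5 and Epcam were at 0 in all 6. Those that passed were low, with 7.43 and 6.998 CPM in W330R and 5.797 and 3.43 CPM in W330R-R181E for the endothelial ones, most of it from the receptor gene Tek in W330R, and 0.705 and 1.38 against 2.16 and 0.616 CPM for the epithelial ones. Of the embryonic stem cell markers 1 passed the filter, Nanog, with 13 and 16 counts in W330R and 20 and 10 in W330R-R181E. The 5 neural markers tested summed to 87.9 and 58.5 CPM in W330R and 68.4 and 43.03 CPM in W330R-R181E, most of it from Map2, a microtubule protein gene. Transcripts typical of stromal cells and of adipocytes are what these markers show. Whether they came from separate cells was not tested. In bulk RNA, fewer cells of a type and less RNA per cell cannot be told apart.

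Some libraries stood apart in genes that interferons induce. The 54 interferon-stimulated genes tested summed to 3880.2 and 1535 CPM in W330R at day 4, 905 and 1087 CPM in W330R-R181E and 1009 and 1304 CPM in WT. Replicate 1 of W330R thus held more than any other day 4 library. At day 6, replicate 1 of W330R-R181E held 5784 CPM and replicate 2 held 1366 CPM.

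**Figure D1:**
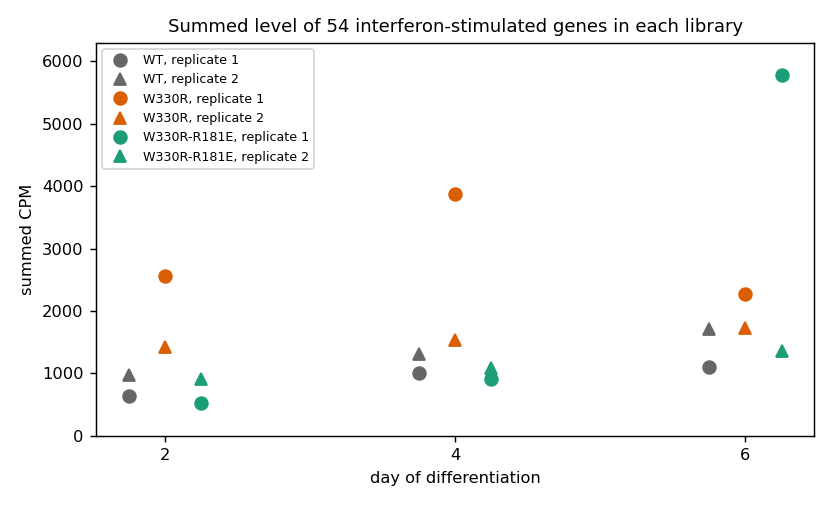
Summed CPM (y axis) of 54 interferon-stimulated genes in each of the 18 libraries of days 2, 4 and 6 (x axis), with 1 point per library, colored by genotype, circles for replicate 1 and triangles for replicate 2. At day 4, replicate 1 of W330R is the highest library, and at day 6 replicate 1 of W330R-R181E is.

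Of 14423 genes tested, 433 differed between W330R-R181E and W330R at day 4 (edgeR quasi-likelihood test with the replicate number as a block, Benjamini-Hochberg adjusted p under 0.05), which is 3% of all genes. In W330R-R181E, 147 genes (1.02%) were higher and 286 (1.98%) were lower. The median fold was 2.42 among the higher genes and 2.6 among the lower genes, and 47 and 91 of them, respectively, differed at least 4-fold. Without the block 68 genes were called (0.471%), 17 higher and 51 lower, and all 68 were among the 433. With only the 4 libraries compared and the block, which leaves 1 residual degree of freedom, 0 genes were called. The libraries of the genotypes did not overlap for 431 of the 433. Over all genes the libraries of W330R-R181E lay above those of W330R without overlap for 3333 (23.1%) and below them for 3310 (22.9%), so this separation alone is common. At an unadjusted p under 0.05 there were 2359 genes (16.4%), and DESeq2 called 953 (6.61%), shares that stand beside those counts for the gene lists. The labels do not say what a replicate number shares. With 1 library left out, in an order kept for the gene lists, the count was 48 without W330R replicate 1, 111 without W330R replicate 2, 6 without W330R-R181E replicate 1 and 110 without W330R-R181E replicate 2. Of the gene lists, that of matrix proteins other than collagens kept 2 calls without W330R-R181E replicate 1 and every other list kept 0.

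**Figure D2:**
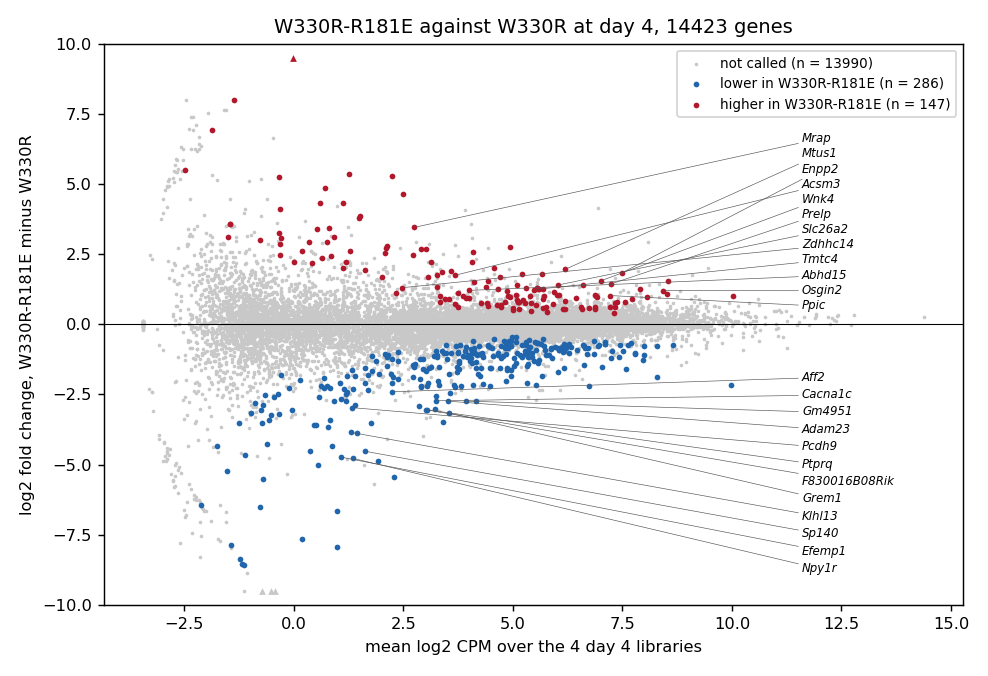
Log2 fold change of W330R-R181E minus W330R at day 4 (y axis) against mean log2 CPM over the 4 libraries (x axis), 1 point per gene, red and blue for genes called higher and lower and grey for the others. Names mark the 24 genes picked by a rule of size, genes beyond 9.5 on the y axis are drawn as triangles at that value, and 147 genes are called higher against 286 lower.

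The 24 genes picked by size, lower and higher, came only from genes called with and without the block whose genotypes did not overlap. Their separation was thus required by the rule and is no further result. Npy1r and Efemp1 had the largest decreases of the genes picked by size. Npy1r, a receptor for neuropeptide Y, had 14.8 and 9.79 CPM in W330R and 0.370 and 0.527 CPM in W330R-R181E. Both double mutant libraries lay far below both W330R libraries, and Npy1r fell by 4.78 on the log2 scale (SE 0.70; edgeR quasi-likelihood test, Benjamini-Hochberg adjusted p = 0.00674). Efemp1, which encodes the matrix glycoprotein fibulin-3, had 14.4 and 6.59 CPM in W330R and 0.493 and 0.264 CPM in W330R-R181E. Its libraries did not overlap either, and it fell by 4.73 (SE 0.34; edgeR quasi-likelihood test, Benjamini-Hochberg adjusted p = 0.000184). In WT at day 4 the levels were 1.32 and 2.69 CPM for Npy1r and 2.57 and 1.48 CPM for Efemp1, between those of the mutants for both genes. Grem1, a secreted antagonist of bone morphogenetic proteins, had 44.5 and 26.8 CPM in W330R and 4.63 and 3.21 CPM in W330R-R181E. The genotypes were well separated, and Grem1 fell by 3.16 (SE 0.32; edgeR quasi-likelihood test, Benjamini-Hochberg adjusted p = 0.00125). WT had 7.28 and 3.68 CPM of Grem1, close to the double mutant.

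Cacna1c, the pore subunit of an L-type calcium channel, had 29.7 and 19.8 CPM in W330R and 3.95 and 3.34 CPM in W330R-R181E and fell by 2.72 on the log2 scale (SE 0.24; edgeR quasi-likelihood test, Benjamini-Hochberg adjusted p = 0.00048). Ptprq, a receptor-type phosphatase, had 25.4 and 20.99 CPM in W330R and 2.22 and 3.25 CPM in W330R-R181E and fell by 3.04 (SE 0.40). The adhesion genes Adam23 and Pcdh9 had 36.6 and 23.7 CPM in W330R and 4.81 and 4.04 CPM in W330R-R181E for the former and 6.34 and 6.92 CPM in W330R and 0.802 and 0.879 CPM in W330R-R181E for the latter. All of these were separated by genotype, as the rule required, and the falls were 2.74 for Adam23 and 2.97 for Pcdh9. Klhl13, an adaptor of a cullin ubiquitin ligase, had 9.29 and 8.56 CPM in W330R and 0.493 and 0.703 CPM in W330R-R181E. Aff2, a nuclear protein gene on the X chromosome, had 11.1 and 10.3 CPM in W330R and 1.85 and 2.15 CPM in W330R-R181E. Neither gene overlapped between the genotypes, and they fell by 3.85 and 2.40, respectively. For Ptprq, Adam23, Pcdh9, Klhl13 and Aff2, the largest edgeR quasi-likelihood Benjamini-Hochberg adjusted p was 0.0108.

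Sp140, a nuclear body protein with domains that read chromatin, had 14.7 and 13.8 CPM in W330R and 0.370 and 0.835 CPM in W330R-R181E. Both W330R libraries were far above the others, including WT at 0.882 and 1.15 CPM, and Sp140 fell by 4.52 on the log2 scale (SE 0.37; edgeR quasi-likelihood test, Benjamini-Hochberg adjusted p = 0.000395). Its relatives Sp100 and Csprs had 41.3 and 9.38 CPM in W330R and 0.493 and 0.791 CPM in W330R-R181E for Sp100 and 31.8 and 8.04 CPM in W330R and 0.123 and 0.176 CPM in W330R-R181E for Csprs. Both fell, with the higher level of each in replicate 1 of W330R. Sp110 had 82 and 38 counts in W330R and 1 and 0 in W330R-R181E, and Gm15433 had 63 and 30 counts in W330R and 0 and 0 in W330R-R181E, which is at least 16.3-fold lower against a floor of 3 counts per library. Csprs, Sp100, Sp110 and Gm15433 were picked after their values were seen. These genes have near-identical copies between which reads cannot be divided safely, so the values of single members are uncertain. F830016B08Rik and Gm4951, interferon-inducible GTPase genes that resemble each other, had 32.3 and 18.5 CPM in W330R and 1.67 and 4.18 CPM in W330R-R181E and 59.1 and 29.6 CPM in W330R and 2.899 and 9.98 CPM in W330R-R181E, respectively. They fell by 3.05 and 2.74 (edgeR quasi-likelihood, Benjamini-Hochberg adjusted p = 0.00783 and 0.0212), with the same caution on near-identical copies. Both were highest in replicate 1 of W330R, the library high in interferon-stimulated genes, and at day 6 their differences were -0.92 and -0.31, not called.

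Mrap had the largest increase of the genes picked by size. Mrap, an accessory protein that brings the corticotropin receptor to the cell surface, had 1.02 and 3.201 CPM in W330R and 29.3 and 18.7 CPM in W330R-R181E. The lowest double mutant library was well above the highest W330R library, and Mrap rose by 3.46 on the log2 scale (SE 0.51; edgeR quasi-likelihood test, Benjamini-Hochberg adjusted p = 0.00674). Enpp2, which encodes autotaxin, the enzyme that makes lysophosphatidic acid, had 84.6 and 108 CPM in W330R and 355 and 329.8 CPM in W330R-R181E. Without overlap, it rose by 1.84 (SE 0.29; edgeR quasi-likelihood test, Benjamini-Hochberg adjusted p = 0.00877). Mtus1, a gene for a microtubule-associated protein, had 35.4 and 38.9 CPM in W330R and 148 and 142 CPM in W330R-R181E, and its replicates lay close together in both genotypes. It rose by 1.97 (SE 0.30; edgeR quasi-likelihood test, Benjamini-Hochberg adjusted p = 0.00724). In WT, Mrap had 19.5 and 16.9 CPM, Enpp2 245 and 283 CPM and Mtus1 109.9 and 127 CPM, in each case nearer to W330R-R181E than to W330R.

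Abhd15, which in adipocytes takes part in the restraint of lipolysis by insulin, had 9.87 and 11.2 CPM in W330R and 24.5 and 24.1 CPM in W330R-R181E. Replicates were nearly equal, and Abhd15 rose by 1.21 on the log2 scale (SE 0.14; edgeR quasi-likelihood test, Benjamini-Hochberg adjusted p = 0.00263), while WT was higher still at 36.8 and 39.7 CPM. Prelp, a leucine-rich repeat protein of the matrix, had 93.2 and 90.04 CPM in W330R and 287 and 210.4 CPM in W330R-R181E and rose by 1.44 (SE 0.19; edgeR quasi-likelihood test, Benjamini-Hochberg adjusted p = 0.00417). Acsm3, a mitochondrial acyl-CoA synthetase, had 6.28 and 7.59 CPM in W330R and 23.004 and 23.7 CPM in W330R-R181E, and the kinase gene Wnk4, which governs ion transport, had 67.9 and 82.5 CPM in W330R and 210.5 and 233 CPM in W330R-R181E. They rose by 1.75 and 1.56, without overlap of the genotypes. The other increases picked by size were Slc26a2, a sulfate transporter (1.41), Zdhhc14, a palmitoyltransferase (1.31), Tmtc4 (1.24), Osgin2 (1.21) and Ppic, a peptidyl-prolyl isomerase (1.03). Left without W330R-R181E replicate 1, 3 of the 24 genes picked by size, Cacna1c, Efemp1 and Sp140, kept the call, and these kept it when any other of the 4 libraries was left out.

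**Figure D3:**
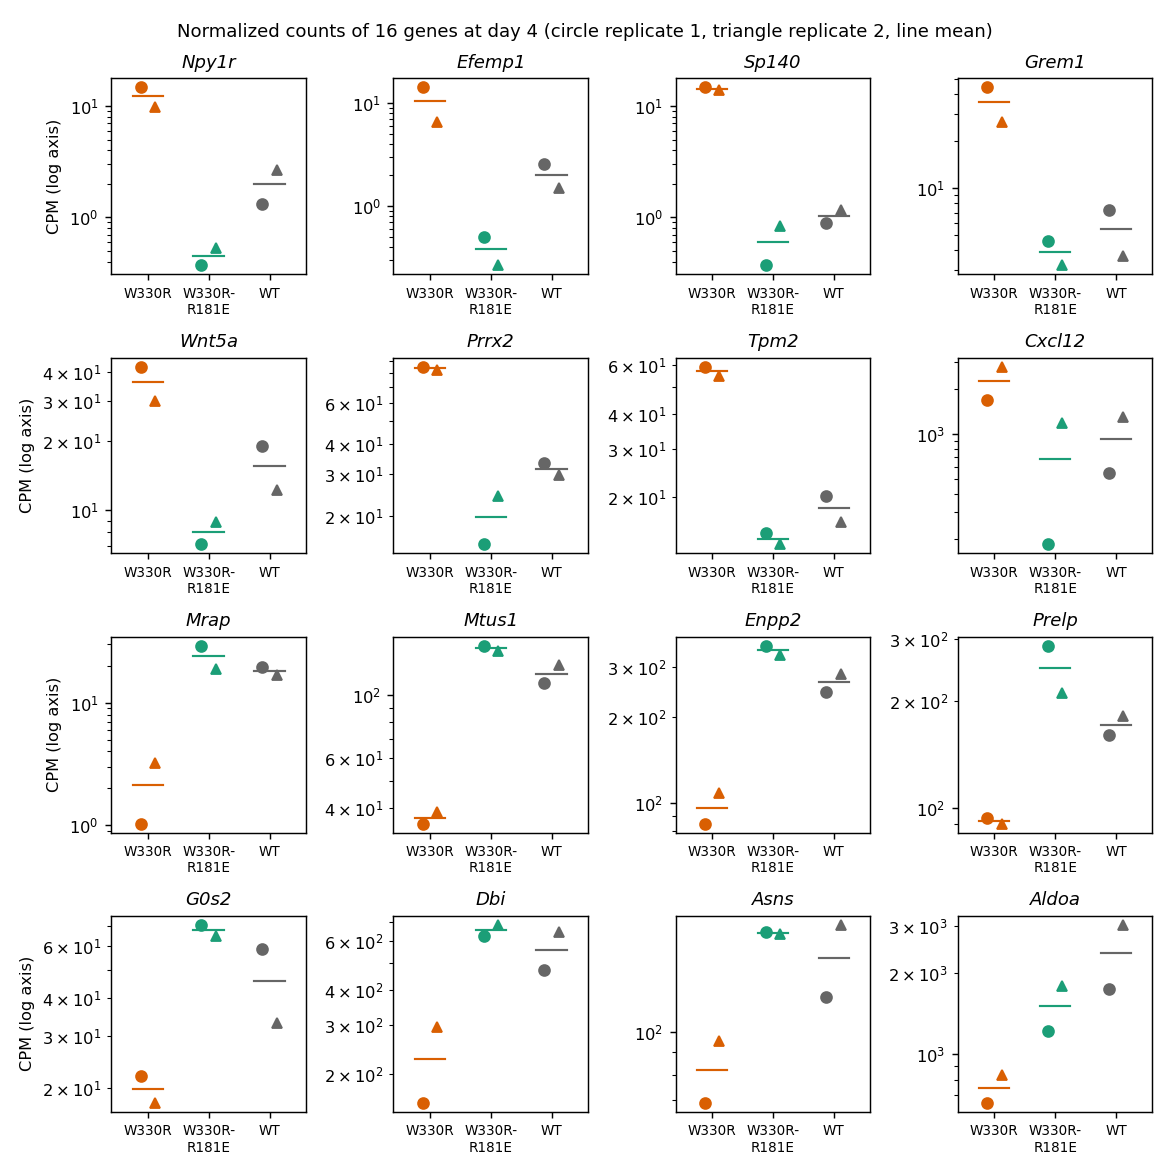
CPM on a log axis (y axis) of 16 genes at day 4 in W330R, W330R-R181E and WT (x axis), with circles for replicate 1, triangles for replicate 2 and a line at the mean. Npy1r to Cxcl12 are lower and Mrap to Aldoa higher in W330R-R181E than in W330R, with no overlap between the 2 mutants.

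Beside WT, the 147 higher genes had a median log2 difference of -1.03 for W330R minus WT and 0.34 for W330R-R181E minus WT. For the 286 lower genes these medians were 1.03 and -0.21. Between W330R and WT, 1536 genes (10.6%) were called at day 4, among them 78 of the higher and 204 of the lower genes. Between W330R-R181E and WT, 3 genes were called (0.0208%), namely Etv3, Pfkfb3 and Mcam, each at an edgeR quasi-likelihood Benjamini-Hochberg adjusted p of 0.0489. These comparisons share their libraries with the one between the mutants, so the values are given side by side and support nothing further. Mcam, a cell adhesion molecule, had 17.1 and 25.2 CPM in W330R and 44.2 and 69.5 CPM in W330R-R181E and 107 and 126 CPM in WT, so that the double mutant stood between the others. Pfkfb3, a regulator of glycolysis, had 51.1 and 38.9 CPM in W330R and 35.1 and 59.4 CPM in W330R-R181E and 137 and 159 CPM in WT, with the mutants overlapping.

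Transcripts of the DNA methyltransferases were not called. Dnmt3a had 88.03 and 137 CPM in W330R and 69.5 and 122 CPM in W330R-R181E, and 107 and 163 CPM in WT, with replicate 2 above replicate 1 in all genotypes and the mutants overlapping. Its log2 difference was -0.25 (SE 0.16; edgeR quasi-likelihood test, Benjamini-Hochberg adjusted p = 0.483). Dnmt1, the maintenance enzyme, had 67.4 and 68.9 CPM in W330R and 62.5 and 61.8 CPM in W330R-R181E, a log2 difference of -0.14. Dnmt3b, the other de novo enzyme, was low, with 6.41 and 5.96 CPM in W330R and 7.15 and 5.76 CPM in W330R-R181E and a difference of 0.05, and Dnmt3l, their cofactor, was under the filter with at most 2 counts in a day 4 library. With edgeR none of the 18 methyltransferases, TET enzymes and methyl-CpG readers was called, 2 had an unadjusted p under 0.05 (against 16.4% of all genes), and DESeq2 called 1 (against 6.61% of all genes). Of 36 Polycomb subunits edgeR also called none, with 3 at an unadjusted p under 0.05, again a smaller share than among all genes, and 0 by DESeq2, and the median was -0.10.

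Of 28 adipogenic transcription factors edgeR called none, against 3% of all genes. Their median log2 difference was 0.20, against 0.01 over all genes, 7 had an unadjusted p under 0.05 (against 16.4% of all genes), and DESeq2 called 1 higher and 1 lower (against 6.61% of all genes). Pparg, the master regulator of fat cell formation, had 33.5 and 41.9 CPM in W330R and 43.4 and 53.9 CPM in W330R-R181E, and 49.2 and 83.1 CPM in WT. The double mutant lay just above W330R and both were under the higher WT library, with a log2 difference of 0.37 (SE 0.23). Cebpa, its partner, had 24.8 and 23.3 CPM in W330R and 26.03 and 44.4 CPM in W330R-R181E, and 104 and 101 CPM in WT. Both mutants were far below WT, and their own difference was 0.52 (SE 0.29). The hormone gene Adipoq had 164 and 263 CPM in W330R and 309.6 and 252 CPM in W330R-R181E, which overlapped, and the complement protease Cfd had 33.3 and 73.4 CPM in W330R and 195 and 95.9 CPM in W330R-R181E, which did not, but neither passed the test (edgeR quasi-likelihood, Benjamini-Hochberg adjusted p = 0.523 and 0.18). Log2 differences were 0.37 for Fabp4, 0.07 for the droplet coat gene Plin1, 1.03 for the lipase Lpl and -1.54 for the fatty acid transporter Cd36, none of them called. Of the 11 adipocyte markers tested, edgeR and DESeq2 called none, and 4 had an unadjusted p under 0.05 (36.4%, against 16.4% of all genes).

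In fat storage, 3 of 34 lipogenesis and triglyceride synthesis genes rose and none fell (8.82% called), and 31 had a positive difference, with a median of 0.54. Dgat2, which makes triglyceride in the last step, had 274 and 231 CPM in W330R and 595 and 489 CPM in W330R-R181E. It rose by 1.10 without overlap (SE 0.25; edgeR quasi-likelihood test, Benjamini-Hochberg adjusted p = 0.0398) and stayed below WT at 882 and 901 CPM. Slc25a1, which carries citrate out of mitochondria for fatty acid synthesis, had 145 and 165 CPM in W330R and 284 and 297 CPM in W330R-R181E and rose by 0.91 (SE 0.16). Mogat1, a monoacylglycerol acyltransferase, had 0 and 3 counts in W330R and 17 and 17 in W330R-R181E, too few for a fold. G0s2, an inhibitor of triglyceride lipase, was the 1 of 17 lipid droplet genes that rose, from 21.9 and 17.8 to 70.7 and 64.9 CPM. Dbi, which binds acyl-CoA, was the 1 of 20 fatty acid uptake and binding genes that rose, from 158 and 295 to 622 and 683 CPM. Their log2 increases were 1.78 (SE 0.27) and 1.56 (SE 0.26), with edgeR quasi-likelihood Benjamini-Hochberg adjusted p of 0.00724 and 0.0108. The medians of these lists were 0.18 and 0.23, and the shares called 5.88% and 5%, against 3% of all genes. Without the block none of these genes was called. The lipogenesis median was 0.34 without W330R replicate 2, and 0 of its genes were called with any of the 4 libraries left out.

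Of 18 lipolysis genes, 2 rose and 1 fell (16.7%, against 3% of all genes), and the median of 0.91 was the highest among the lists of fat metabolism. Adrb3, the receptor through which catecholamines start lipolysis, had 0.705 and 0.782 CPM in W330R and 4.75 and 3.08 CPM in W330R-R181E, and Ffar2, a receptor for short-chain fatty acids that restrains it, had 0.641 and 0.521 CPM in W330R and 5.74 and 3.03 CPM in W330R-R181E. Each was several times higher in both double mutant libraries, with log2 increases of 2.43 (SE 0.49) and 2.93 (SE 0.60). Pde3b, the phosphodiesterase by which insulin lowers cyclic AMP, had 23.4 and 19.6 CPM in W330R and 11.7 and 6.37 CPM in W330R-R181E and fell by 1.32 (SE 0.32; edgeR quasi-likelihood test, Benjamini-Hochberg adjusted p = 0.0485). Of 23 adipokine genes 1 rose, Rarres2, the gene of chemerin, with 0.897 and 2.75 CPM in W330R and 7.34 and 17.4 CPM in W330R-R181E and a log2 increase of 2.79 (SE 0.46). Of 28 insulin signalling and glucose uptake genes 1 rose, Tusc5, which helps the glucose transporter reach the surface, with 3.27 and 7.97 CPM in W330R and 11.3 and 27.1 CPM in W330R-R181E. The medians were 0.20 and 0.15 and the shares called 4.35% and 3.57%, respectively, near the 3% of all genes. The adipokine median was -0.00 without W330R-R181E replicate 1 and 0.48 without W330R replicate 1. The lipolysis median lay between 0.66 and 0.92 with a library left out, and its genes had 2 calls without W330R-R181E replicate 2 and 0 without any other. Among 14 thermogenic fat genes 1 was called (7.14%), Adrb3, which is in both lists, and the median was -0.01, or 0.68 without W330R-R181E replicate 2. Without the block edgeR called none of the lipolysis, adipokine, insulin signalling or thermogenic fat genes. Adjusted p were then 0.0659 for Adrb3, 0.0511 for Ffar2, 0.347 for Pde3b, 0.25 for Rarres2 and 0.219 for Tusc5 (edgeR quasi-likelihood, Benjamini-Hochberg).

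Genes of mitochondrial metabolism had small positive differences of which few passed the test. Of 80 nuclear-encoded respiratory chain subunits, 78 had a positive log2 difference and the median was 0.37. The single called member was Atp5g1, a subunit of the membrane rotor of ATP synthase, with 82.8 and 108 CPM in W330R and 125 and 167 CPM in W330R-R181E (log2 increase 0.61, SE 0.15; edgeR quasi-likelihood test, Benjamini-Hochberg adjusted p = 0.0477). The share called by edgeR was 1.25%, against 3% of all genes. In this list 23 genes had an unadjusted p under 0.05 (against 16.4% of all genes), and DESeq2 called 3 (against 6.61% of all genes). Medians of W330R minus WT and of W330R-R181E minus WT for this list, which share libraries with the difference, were -0.88 and -0.47. Of 53 genes of fatty acid oxidation and the TCA cycle edgeR called none, with 13 at an unadjusted p under 0.05 (against 16.4% of all genes) and 3 by DESeq2 (against 6.61% of all genes), and the median was 0.30. For the 13 genes of the mitochondrial genome the median was 0.29, with 0 called by edgeR or DESeq2 and 1 at an unadjusted p under 0.05. Cholesterol synthesis and uptake had a median of 0.29 over 25 genes, with 0 called by edgeR or DESeq2 and 4 at an unadjusted p under 0.05, about the share of all genes. Their median was 0.12 without W330R replicate 2 and 0.49 without W330R replicate 1, and that of the mitochondrial genome was 0.16 without W330R replicate 2. Without W330R replicate 1 the respiratory chain median was 0.32, and without W330R-R181E replicate 1 it was 0.42. No respiratory chain gene was called without the block, with RLE scaling, with no filter or with all 22 libraries and the block. The adjusted p of Atp5g1 without the block was 0.336 (edgeR quasi-likelihood, Benjamini-Hochberg).

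The list with the largest share of calls among those of 30 or more genes was that of ATF4 targets, genes that cells switch on when amino acids run short or protein folding is disturbed. Of 30 tested, 6 rose (20%, against 3% of all genes) and none fell, and the median was 0.64. Asns, which makes asparagine, had 68.9 and 95.3 CPM in W330R and 169.7 and 168 CPM in W330R-R181E. The double mutant libraries were nearly equal and above both W330R libraries, and Asns rose by 1.06 (SE 0.15; edgeR quasi-likelihood test, Benjamini-Hochberg adjusted p = 0.00674). Atf5, a transcription factor, had 127 and 190.1 CPM in W330R and 335 and 409 CPM in W330R-R181E and rose by 1.25 (SE 0.28). Pycr1, of proline synthesis, had 12.05 and 13.5 CPM in W330R and 56.8 and 22.9 CPM in W330R-R181E, and Slc7a5, a carrier of large amino acids, had 38.3 and 54.3 CPM in W330R and 90.7 and 99.7 CPM in W330R-R181E. Their log2 increases were 1.54 and 1.04, with the former led by replicate 1. Psat1, of serine synthesis, and the alanine aminotransferase Gpt2 rose by 0.76 and 1.02. Without the block 0 members were called by edgeR, while DESeq2 with the block called 13. Leaving out W330R replicate 1 or W330R-R181E replicate 1 also gave 0 calls, with medians of 0.55 and 0.56, and leaving out W330R replicate 2 or W330R-R181E replicate 2 gave 1 and 2.

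Of 32 hypoxia and glycolysis genes, 2 rose and 1 fell (9.38%, against 3% of all genes), and the median was 0.38. All of these calls were lost without the block and with any of the 4 libraries left out. The glycolytic enzyme Aldoa had 655 and 833 CPM in W330R and 1221 and 1792 CPM in W330R-R181E, and Pfkl, the liver form of phosphofructokinase, had 144 and 248 CPM in W330R and 323 and 442 CPM in W330R-R181E. Neither overlapped between the mutants, and the log2 increases were 1.00 (SE 0.20) and 0.99 (SE 0.21), with edgeR quasi-likelihood Benjamini-Hochberg adjusted p without the block of 0.289 and 0.338. Ndrg1, a gene that low oxygen and cell stress induce, had 124 and 116 CPM in W330R and 26.4 and 47.03 CPM in W330R-R181E and fell by 1.71 (SE 0.36; edgeR quasi-likelihood test, Benjamini-Hochberg adjusted p = 0.0301). Among 32 oxidative stress genes edgeR called none, with 10 at an unadjusted p under 0.05 (against 16.4% of all genes) and 2 by DESeq2 (against 6.61% of all genes).

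**Figure D4:**
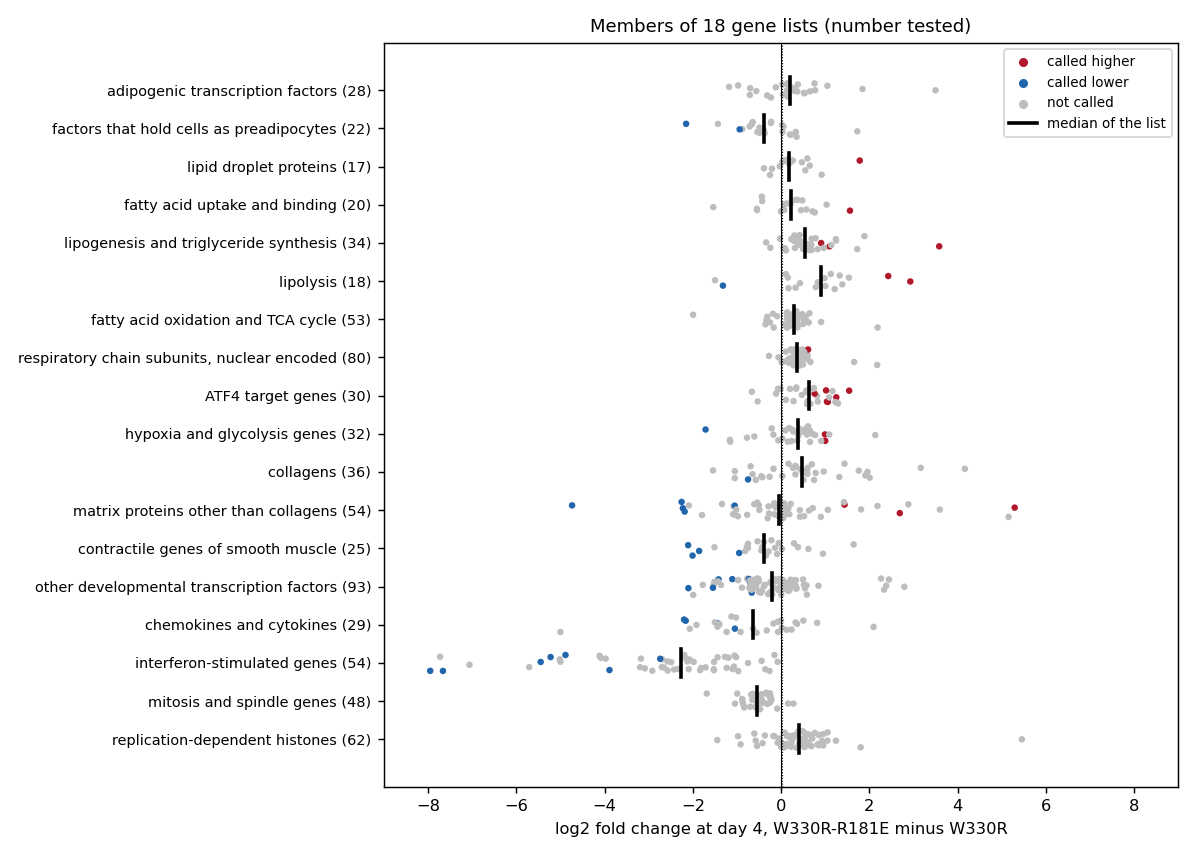
Log2 fold change of W330R-R181E minus W330R at day 4 (x axis) for the tested members of 18 gene lists (y axis, number tested in parentheses), 1 point per gene, red for called higher, blue for called lower, grey for not called, with a black bar at the median of each list. The interferon-stimulated genes reach the lowest median, -2.26, while lipolysis has 0.91 and ATF4 targets 0.64.

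Of the genes that hold cells as preadipocytes, some were called lower and none higher. Wnt5a and Pdgfrb were the 2 of 22 tested that were called (9.09%, against 3% of all genes), and the median was -0.38. A positive difference was found for 8 of the 22. Sox9, the most abundant, had 391 and 490 CPM in W330R and 703 and 495 CPM in W330R-R181E. Its log2 difference was 0.35 (SE 0.44), not called. Wnt5a, a secreted ligand that can oppose fat cell formation, had 42.2 and 29.9 CPM in W330R and 7.09 and 8.92 CPM in W330R-R181E, and 18.96 and 12.3 CPM in WT. It fell by 2.15 without overlap (SE 0.25; edgeR quasi-likelihood test, Benjamini-Hochberg adjusted p = 0.00213). Pdgfrb, a growth factor receptor of stromal cells, had 245 and 186 CPM in W330R and 114 and 108 CPM in W330R-R181E and fell by 0.94 (SE 0.16). It is also the 1 of 12 stromal markers that was called (8.33%, against 3% of all genes), and the median of those markers was -0.46. Without the block Pdgfrb was not called (edgeR quasi-likelihood, Benjamini-Hochberg adjusted p = 0.116). With the libraries left out in turn 1, 1, 0 and 1 preadipocyte genes were called. The preadipocyte median was -0.18 without W330R-R181E replicate 1, and the stromal marker median was -0.70 without W330R replicate 2. In the list of 23 WNT ligands, antagonists and targets, Wnt5a was the 1 gene called (4.35%, against 3% of all genes).

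Among 40 genes of BMP and TGF-beta signalling, Grem1 and Ltbp2 fell and Bambi rose (7.5%, against 3% of all genes), with a median of -0.19. Ltbp2, a matrix protein related to those that hold latent TGF-beta, had 470.2 and 761 CPM in W330R and 102 and 269.6 CPM in W330R-R181E. The highest double mutant library was below the lowest W330R library, and it fell by 1.87 (SE 0.28; edgeR quasi-likelihood test, Benjamini-Hochberg adjusted p = 0.00674). In Ltbp2 replicate 2 was the higher library of both genotypes, and without the block its adjusted p was 0.409 by the same test. Bambi, a decoy receptor, had 14.1 and 18.4 CPM in W330R and 40.4 and 38.5 CPM in W330R-R181E and rose by 1.27 (SE 0.27). This list had 1, 2, 0 and 2 called with the libraries left out in turn. The median of BMP and TGF-beta genes was -0.11 without W330R-R181E replicate 1. Notch3 was the 1 of 21 hedgehog and Notch genes called (4.76%, against 3% of all genes). It had 33.5 and 23.9 CPM in W330R and 15.4 and 7.999 CPM in W330R-R181E and fell by 1.35 (SE 0.29). Without the block it was not called (edgeR quasi-likelihood, Benjamini-Hochberg adjusted p = 0.331). In the IGF system 2 of 13 fell, Igfbp3, which binds IGFs, and Pappa2, which cleaves IGF-binding proteins, and with the libraries left out in turn 0, 0, 0 and 1 were called. The share called in the IGF list was 15.4%, against 3% of all genes. Igfbp3 had 32 and 15 counts in W330R and 3 and 3 in W330R-R181E. Pappa2 had 7.496 and 7.33 CPM in W330R and 1.604 and 3.78 CPM in W330R-R181E. For Pappa2 the log2 difference was -1.48 at day 4 but 1.80 at day 2. Bambi, Igfbp3 and Pappa2 were not called without the block, with adjusted p of 0.0644, 0.136 and 0.103 (edgeR quasi-likelihood, Benjamini-Hochberg).

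The smooth muscle contractile genes had 4 of 25 lower (16%, against 3% of all genes) and none higher, with a median of -0.39. Tpm2, a tropomyosin, had 59.2 and 54.7 CPM in W330R and 14.9 and 13.5 CPM in W330R-R181E, and 20.3 and 16.3 CPM in WT. Replicates lay close together, and Tpm2 fell by 2.01 (SE 0.23; edgeR quasi-likelihood test, Benjamini-Hochberg adjusted p = 0.00199). Synpo2, an actin-binding protein, had 7.95 and 11.3 CPM in W330R and 1.97 and 2.505 CPM in W330R-R181E and fell by 2.11 (SE 0.35). Itga8, an integrin subunit, and Ppp1r12b, a subunit of myosin phosphatase, fell by 1.86 and 0.95. The contractile median was -0.65 without W330R replicate 1 and -0.19 without W330R replicate 2, with 3 and 2 called, and -0.28 without W330R-R181E replicate 1, with 0 called. Of 12 skeletal muscle genes edgeR and DESeq2 called none, and 1 had an unadjusted p under 0.05.

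Osteoblast and cartilage genes had 2 of 24 lower (8.33%, against 3% of all genes), none higher and a median of 0.28. Alpl, the alkaline phosphatase needed to mineralize bone, had 3.78 and 5.14 CPM in W330R and 0.185 and 0.527 CPM in W330R-R181E and fell by 3.61 (SE 0.40; edgeR quasi-likelihood test, Benjamini-Hochberg adjusted p = 0.00189). Phex, a peptidase of mineralizing cells, had 31.4 and 14.3 CPM in W330R and 9.81 and 2.07 CPM in W330R-R181E and fell by 2.15 (SE 0.39), with replicate 1 higher in both genotypes and an edgeR quasi-likelihood Benjamini-Hochberg adjusted p of 0.431 without the block. The cartilage collagen Col2a1 had 283 and 321 CPM in W330R and 3939 and 662 CPM in W330R-R181E, with a wide gap between the double mutant replicates, and was not called. The median of the list changed sign without W330R-R181E replicate 1, at -0.04 with 0 called, and was 0.16 without W330R replicate 1 and 0.70 without W330R replicate 2, with 1 called in either case.

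In the extracellular matrix, 3 of 54 genes other than collagens rose and 5 fell (14.8%, against 3% of all genes), with a median of -0.04. Beside Efemp1, the CCN family genes Nov and Wisp1, the basement membrane gene Nid1 and the microfibril gene Mfap5 fell. Nov had 339 and 152 CPM in W330R and 77.4 and 32.1 CPM in W330R-R181E and Nid1 had 357 and 283 CPM in W330R and 154 and 152 CPM in W330R-R181E, with falls by 2.19 (SE 0.21) and 1.05 (SE 0.15). Nov and Nid1 were picked after their values were seen. Neither gene overlapped, and replicate 1 was the higher library of both genotypes for each. The risers were Prelp, the proteoglycan gene Dcn and Hapln1, which links hyaluronan to proteoglycans. The matrix median was -0.24 without W330R replicate 1, with 2 called, and 3 were called without the block. Hapln1 had 0.577 and 0.782 CPM in W330R and 116 and 7.25 CPM in W330R-R181E and Dcn had 2.18 and 3.69 CPM in W330R and 37.99 and 9.58 CPM in W330R-R181E. Replicate 1 of W330R-R181E carried most of both increases, though replicate 2 was also above W330R. Of 36 collagen genes 1 was called (2.78%, against 3% of all genes), and the median was 0.47. It was Col12a1, with 282 and 229 CPM in W330R and 137 and 169 CPM in W330R-R181E and a fall by 0.75 (SE 0.16). Without the block its adjusted p was 0.0893 (edgeR quasi-likelihood, Benjamini-Hochberg). Of 29 matrix metalloproteinases and inhibitors, 2 fell (6.9%, against 3% of all genes). They were Mmp16 and Adamts5, with falls by 1.84 and 1.39. Mmp16 had 62.7 and 54.2 CPM in W330R and 22.02 and 12.4 CPM in W330R-R181E. Adamts5, with 131 and 43.9 CPM in W330R and 44.8 and 19.8 CPM in W330R-R181E, is 1 of the 2 called genes whose libraries overlapped. For Mmp16 and Adamts5 replicate 1 was the higher library of each genotype. Without the block neither was called, with adjusted p of 0.173 and 0.371 (edgeR quasi-likelihood, Benjamini-Hochberg), nor was any other gene of this list. With the libraries left out in turn 1, 2, 0 and 0 genes of this list were called.

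Developmental transcription factors other than Hox genes had 8 of 93 lower (8.6%, against 3% of all genes), none higher and a median of -0.20. Prrx2, a homeobox gene of limb and craniofacial mesenchyme, had 85.02 and 82.2 CPM in W330R and 15.2 and 24.3 CPM in W330R-R181E, and 33.3 and 29.8 CPM in WT. The genotypes were separated, and Prrx2 fell by 2.10 (SE 0.34; edgeR quasi-likelihood test, Benjamini-Hochberg adjusted p = 0.0103). Osr2, a zinc finger factor of palate and limb, had 12.5 and 16.5 CPM in W330R and 4.56 and 5.36 CPM in W330R-R181E, and the forkhead gene Foxf1 had 27.7 and 25.1 CPM in W330R and 13.9 and 10.99 CPM in W330R-R181E. They fell by 1.54 (SE 0.31) and 1.11 (SE 0.21). Sox12 fell by 1.42, Foxp1 by 0.73, Meis2 by 0.70 and Tbx18 by 0.58. Without the block 1 of these genes was called, and with each of the 4 libraries left out in turn 1, 1, 0 and 1 were. Of 13 Hox genes edgeR and DESeq2 called none, and 0 had an unadjusted p under 0.05. Among 38 clustered protocadherins 1 fell (2.63%, against 3% of all genes), Pcdhga1, by 0.73, but genes of these clusters share exons and sequence.

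Of 54 interferon-stimulated genes tested none had a positive difference, or 6 without W330R replicate 1, and 7 fell (13%, against 3% of all genes). The median was -2.26, or -2.17 with genes at 0 in a genotype set to the floor of 3 counts per library. Trim30a, an antiviral ubiquitin ligase gene, had 64.6 and 18.5 CPM in W330R and 0.308 and 1.05 CPM in W330R-R181E, and the nucleic acid sensor gene Ifi203 had 89.3 and 23.3 CPM in W330R and 5.304 and 8.703 CPM in W330R-R181E. Oas2, which makes a messenger that activates RNase L, had 99.6 and 3.24 CPM in W330R and 0.247 and 0.0440 CPM in W330R-R181E. In each case replicate 1 of W330R was several times its replicate 2, yet both lay above the double mutant. Irgm2 and Sp100 also fell, as did Oas1g and Cmpk2, which had 389 and 89 counts in W330R and 2 and 0 in W330R-R181E for Oas1g and 44 and 7 counts in W330R and 1 and 0 in W330R-R181E for Cmpk2. B2m, the most abundant gene of the list, had 911 and 598 CPM in W330R and 221 and 359 CPM in W330R-R181E and was not called (edgeR quasi-likelihood test, Benjamini-Hochberg adjusted p = 0.0707). With all libraries DESeq2 called 20 (against 6.61% of all genes), and 35 had an unadjusted p under 0.05 (against 16.4% of all genes). Ifi203 was picked after its values were seen. Oas1 and Trim30 genes have near-identical copies, so their single values are uncertain. Without W330R replicate 1 edgeR called 0 and the median was -1.50, 2 were called without W330R replicate 2, and 0 were called without the block or without either W330R-R181E library. With all 22 libraries and the block edgeR called 11 of 53 tested. Without W330R-R181E replicate 1 of day 6 the day 4 median was -2.31. How much of the difference rests on replicate 1 of W330R was not tested beyond these values.

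Of 29 chemokines and cytokines 4 fell (13.8%, against 3% of all genes) and none rose. The median was -0.64, or -0.56 with genes at 0 in a genotype set to the floor. Cxcl12, a chemokine of stromal cells, had 1685 and 2821 CPM in W330R and 183 and 1189 CPM in W330R-R181E, and 551 and 1294 CPM in WT. The double mutant was lower in both libraries, with a wide gap between its replicates, and Cxcl12 fell by 2.16 (SE 0.47; edgeR quasi-likelihood test, Benjamini-Hochberg adjusted p = 0.0359). Csf1, a growth factor of macrophages, had 155 and 169 CPM in W330R and 47.98 and 75.9 CPM in W330R-R181E, and Tnfsf12 had 27.7 and 26.6 CPM in W330R and 13.3 and 12.97 CPM in W330R-R181E. They fell by 1.44 (SE 0.32) and 1.05 (SE 0.16). Ccl2, which attracts monocytes, had 9.61 and 24.9 CPM in W330R and 1.48 and 8.26 CPM in W330R-R181E and fell by 2.20 (SE 0.35). Of 17 complement genes C1s1 and Serping1 fell (11.8%, against 3% of all genes). The protease gene C1s1 had 64.7 and 143 CPM in W330R and 11.2 and 42.99 CPM in W330R-R181E, and Serping1, the inhibitor of that protease, had 30 and 27 counts in W330R and 1 and 1 in W330R-R181E. The chemokine and cytokine median rested on single libraries, at -0.02 without W330R replicate 1, the library high in interferon-stimulated genes, with 0 called and 13 of 29 positive, and at -1.22 without W330R-R181E replicate 2, with 1 called. With the libraries left out in turn 0, 2, 0 and 0 complement genes were called. Replicate 2 was the higher library of each genotype for Cxcl12, Ccl2 and C1s1, whose adjusted p without the block were 0.58, 0.704 and 0.559 (edgeR quasi-likelihood, Benjamini-Hochberg). Lyz2, a lysozyme gene, was called higher among 3 leukocyte markers tested, at 0.384 and 0.744 CPM in W330R and 2.77 and 2.64 CPM in W330R-R181E. Csf1, Serping1 and Lyz2 were not called without the block either, with adjusted p of 0.243, 0.0505 and 0.0851 (edgeR quasi-likelihood, Benjamini-Hochberg). Tnfsf12 kept its call, at 0.0438 by the same test.

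Other lists held no called gene. The mitosis and spindle genes had a median of -0.55 over 48 genes, 2 of them with a positive difference, and the DNA replication genes had -0.15 over 50. Top2a, the topoisomerase of dividing cells, had 93.99 and 80.1 CPM in W330R and 71.9 and 60.3 CPM in W330R-R181E, lower in both double mutant libraries but not called. At unadjusted p under 0.05 there were 3 and 4 genes, smaller shares than the 16.4% of all genes, and DESeq2 called 0 in both lists. Without W330R replicate 2 the mitosis median was -0.33, and without W330R replicate 1 the replication median was -0.25. Replication-dependent histones had a median of 0.40 over 62 genes, with 6 at an unadjusted p under 0.05 and 0 by DESeq2. That median was 0.09 without W330R-R181E replicate 2, with 35 genes positive, and 0.21 without W330R replicate 2. Ribosomal protein genes had 0.07 over 85, imprinted genes -0.03 over 28 and germline genes 0.07 over 12. These had 1, 6 and 1 genes at an unadjusted p under 0.05 (against 16.4% of all genes), and edgeR and DESeq2 called 0. Medians this close to 0 can change sign with 1 library left out, as that of the ribosomal genes did without W330R replicate 1, at -0.05. For 28 genes that respond to glucocorticoids and cyclic AMP the median was -0.04, with 0 called by edgeR, 3 at an unadjusted p under 0.05 and 1 by DESeq2.

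The same contrast was read at the other days, in other libraries. At day 2, 227 genes (1.57%) were higher and 401 (2.78%) lower in W330R-R181E than in W330R, and at day 6, 153 (1.06%) and 216 (1.5%). Of the 147 genes higher at day 4, 74 (50.3%) were also called higher at day 2 and 82 (55.8%) at day 6, and 45 at all 3 days. Of the 286 lower genes, 195 (68.2%) were called lower at day 2, 144 (50.3%) at day 6 and 120 at all 3 days. Median log2 differences of the higher genes were 1.27 at day 4, 1.03 at day 2 and 1.08 at day 6, and those of the lower genes -1.38, -1.38 and -1.01. Efemp1 had -3.84 at day 2 and -4.91 at day 6, Grem1 -2.33 and -2.56, Mtus1 1.94 and 2.01, and Mrap 3.71 and 2.44. Of the 24 genes picked by size, 19 were called the same way at all 3 days. Acsm3, Wnk4 and Slc26a2 were not called at day 2 (1.25, 0.90 and 0.66), nor F830016B08Rik and Gm4951 at day 6. Tests of the difference between days called 0 genes with edgeR, both for day 4 against day 2 (442 at an unadjusted p under 0.05) and for day 4 against day 6 (232), while DESeq2 called 24 and 2. Without replicate 1 of W330R-R181E at day 6, 56 genes were called at day 6.

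List medians varied over the days. The interferon-stimulated genes had medians of -2.73 at day 2, -2.26 at day 4 and 0.75 at day 6, where replicate 1 of W330R-R181E held 5784 CPM and the median was not computed without it. Mitosis and spindle genes had 1.22 at day 2, -0.55 at day 4 and -0.04 at day 6. The ATF4 targets had 0.62, 0.64 and 0.50, and the respiratory chain subunits 0.23, 0.37 and 0.41. Cebpa, Adipoq and Cd36 were called at day 2, with 1.38, 1.42 and -3.12, and were not called at day 4 or day 6, and the edgeR tests between days called none of them.

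Since DNMT3A acts on CG dinucleotides, promoters of 4 genes with large changes are shown, Efemp1 and Grem1 among the lower and Prelp and Abhd15 among the higher genes. Each runs from 250 bases before to 50 after the start of the gene in RefSeq GRCm38.p6, 5′ to 3′ on the strand of the gene, with every CG in capitals. CG reads the same on both strands. Of 32851 promoters of this length, 94.6% hold a CG, 26.5% hold 20 or more, and the median is 7. The promoter of Efemp1 (chr11:28852955-28853254 on the plus strand) holds 11, that of Grem1 (chr2:113758599-113758898 on the minus strand) 28, that of Prelp (chr1:133921352-133921651 on the minus strand) 7 and that of Abhd15 (chr11:77514867-77515166 on the plus strand) 29. CG content was not compared between called and other genes. An entry was found for 70.6% of tested and 69.3% of called genes.
Efemp1: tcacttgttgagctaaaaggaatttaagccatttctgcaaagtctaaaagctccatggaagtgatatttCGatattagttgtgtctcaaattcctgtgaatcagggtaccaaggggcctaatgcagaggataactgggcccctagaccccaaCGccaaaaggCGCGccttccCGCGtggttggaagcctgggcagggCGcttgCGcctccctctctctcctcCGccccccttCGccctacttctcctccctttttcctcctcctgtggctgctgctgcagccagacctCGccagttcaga
Grem1: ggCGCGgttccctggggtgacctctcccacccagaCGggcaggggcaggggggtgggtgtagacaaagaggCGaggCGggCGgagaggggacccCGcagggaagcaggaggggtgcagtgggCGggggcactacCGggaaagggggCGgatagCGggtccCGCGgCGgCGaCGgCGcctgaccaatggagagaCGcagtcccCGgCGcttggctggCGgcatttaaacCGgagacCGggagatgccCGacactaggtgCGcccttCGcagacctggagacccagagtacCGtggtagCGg
Prelp: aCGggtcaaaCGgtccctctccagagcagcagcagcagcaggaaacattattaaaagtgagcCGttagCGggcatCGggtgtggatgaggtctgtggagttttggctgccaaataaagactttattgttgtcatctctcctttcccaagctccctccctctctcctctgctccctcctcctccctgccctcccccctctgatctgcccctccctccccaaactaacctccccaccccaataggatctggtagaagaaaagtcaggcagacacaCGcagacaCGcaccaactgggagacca
Abhd15: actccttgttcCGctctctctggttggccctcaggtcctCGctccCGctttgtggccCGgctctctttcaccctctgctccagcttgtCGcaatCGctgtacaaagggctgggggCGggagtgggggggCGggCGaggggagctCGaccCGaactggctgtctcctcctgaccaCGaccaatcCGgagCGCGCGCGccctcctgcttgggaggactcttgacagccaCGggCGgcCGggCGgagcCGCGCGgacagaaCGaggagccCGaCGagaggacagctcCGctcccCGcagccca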

How the data were processed

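RNA of 22 libraries of C3H 10T1/2 cells was sequenced, 2 per condition, and the 18 libraries of days 2, 4 and 6 entered the fit. The authors deposited raw counts per gene symbol, whole numbers without normalization, for 30170 genes. The submitters' processing notes name kallisto, DESeq2 1.40 and GRCm39, without saying which step each served. The annotation and the use of strand are not given in the sources used here, so overlapping and antisense genes cannot be told apart.

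From the counts, genes were kept in R 4.3.3 by the filterByExpr function (edgeR 4.0.16, with 10 and 15 as the smallest count and total), which left 14423. Libraries were scaled by TMM, and a quasi-likelihood model was fitted with 9 condition means and the replicate number as a block, leaving 8 residual degrees of freedom. The block was part of the rule for the comparison. P-values were adjusted by Benjamini-Hochberg over all genes tested, with calls under 0.05. The standard error was the log2 fold change divided by the square root of the F statistic. Log2 CPM used a prior count of 2.

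Named genes were the 12 largest increases and 12 largest decreases among genes called with and without the block, whose mean log2 CPM reached 1, without overlap of the genotypes, where 16 and 43 were eligible. The DNA methyltransferases, 8 adipocyte genes, and per gene list up to 4 called members and the most abundant member were added. Others were chosen after their values were seen. Members and lists were chosen with earlier results of these data known. Lists are described by counts and medians, without a set test. Alternatives were DESeq2 1.42.0, RLE scaling, no filter, other sets of libraries, no block or a block within each day, and each of the 4 libraries left out. Promoters were matched by symbol.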

Additional observations from a re-analysis of the deposited data

How the results depend on the processing

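The count of genes called at day 4 (433) was 68 with no replicate block, 278 with all 22 libraries and no block, 953 with DESeq2, and 0 with only the 4 libraries compared, where the block leaves 1 residual degree of freedom and 2455 genes had an unadjusted p under 0.05. Leaving out a library gave 6 to 111 (6 without W330R-R181E replicate 1, 48 without W330R replicate 1, 110 without W330R-R181E replicate 2, 111 without W330R replicate 2), with the remaining library assumed to vary like the other groups. The block within each day gave 560, all 22 libraries with the block 542, RLE scaling 435 and no filter 386. All 433 kept their direction under every alternative in which they were tested. These fits reuse the same libraries, which did not overlap for 431 of the 433, so a change of direction was hardly possible. At day 2 (628) the counts were 179 with no block, 387 with all 22 libraries and no block, 0 with only its own libraries (1431 at an unadjusted p under 0.05) and 1136 with DESeq2. At day 6 (369) they were 40, 218, 241 and 906 in the same order. Without W330R-R181E replicate 1 of day 6, an alternative chosen after seeing the data, day 6 had 56 calls (56 to 271 over the libraries left out) and day 4 had 447.

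For the difference between days, 0 genes in the edgeR fit became 1 for day 4 against day 2 with all 22 libraries and the block (Pappa2) and 24 with DESeq2. For day 4 against day 6 it became 2 with DESeq2 and 0 to 1 over the libraries left out (Ppcdc, without W330R-R181E day 6 replicate 1). The cause of these changes was not tested. Log2 differences near 0 changed sign when a library was left out, for Dnmt3b (from 0.05 to between -0.0139 and 0.13) and Plin1 (from 0.07 to between -0.190 and 0.29), neither of them called.

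Replicate numbers were not shown to pair the libraries. After the mean of each condition was taken off, libraries with the same number correlated across genes at 0.157 between W330R and W330R-R181E at day 4, and at -0.023 to 0.529 over 36 pairs of conditions, with 26 above 0.1. Of 77 named called genes, 30 kept the call without the block and 77 with DESeq2. With 2 libraries per genotype, low counts limit what can be called, and 24 called genes had at most 3 counts in both libraries of a genotype.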

Other observations

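Of the 433 called genes, 365 were in no list, and the genes named here were chosen among them after their values were seen. The cadherin gene Cdh11 had 367 and 304 CPM in W330R and 115 and 107 CPM in W330R-R181E, and the adhesion molecule gene Ncam1 had 30.2 and 22.8 CPM in W330R and 6.41 and 5.41 CPM in W330R-R181E. Both were separated by genotype and fell by 1.59 (SE 0.17) and 2.15 (SE 0.23) on the log2 scale. The receptor tyrosine kinase genes Egfr and Axl had 129 and 120.4 CPM in W330R and 32.8 and 52.3 CPM in W330R-R181E for Egfr and 274 and 189.8 CPM in W330R and 114 and 86.5 CPM in W330R-R181E for Axl, with falls by 1.56 (SE 0.20) and 1.21 (SE 0.26). Cd248, a surface protein of stromal cells, fell by 1.85 and had 104 and 90.4 CPM in W330R and 27.3 and 25.9 CPM in W330R-R181E. Hmga2, a chromatin protein of embryonic and undifferentiated mesenchymal cells, had 45.7 and 37.9 CPM in W330R and 10.1 and 8.79 CPM in W330R-R181E and fell by 2.14 (SE 0.29; edgeR quasi-likelihood test, Benjamini-Hochberg adjusted p = 0.00446). Plat, the tissue plasminogen activator, had 19.4 and 15.001 CPM in W330R and 4.81 and 3.34 CPM in W330R-R181E and fell by 2.09 (SE 0.18; edgeR quasi-likelihood test, Benjamini-Hochberg adjusted p = 0.00048). For Cdh11, Ncam1, Egfr, Cd248, Hmga2 and Plat the WT libraries had 173 and 118, 16.4 and 10.4, 64.3 and 51.7, 47.99 and 28.8, 12.1 and 7.96 and 5.22 and 4.39 CPM, in that order, all below both W330R libraries. Axl, in WT at 118.98 and 101 CPM, was also below both W330R libraries. All of these genes were picked with the W330R values seen, and the comparison with WT reuses those libraries. The order of WT and W330R therefore supports nothing further.

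Among the higher genes outside the lists, Itpr1, a calcium channel of the endoplasmic reticulum, had 0 and 0 counts in W330R and 88 and 444 in W330R-R181E, which is at least 82.1-fold higher against a floor of 3 counts per library, and WT had 148 and 444. Neither W330R library of day 4 thus had a count assigned to this gene (edgeR quasi-likelihood test, Benjamini-Hochberg adjusted p = 0.0267). Whether its reads were absent or were assigned elsewhere was not tested, so the fold is uncertain. The same contrast for Itpr1 was not called at the other days and pointed the other way, at -8.09 at day 2 and -0.27 at day 6. Counts of 0 for Itpr1 were thus not a steady feature of W330R. Kcne2, a potassium channel subunit, had 0.833 and 1.19 CPM in W330R and 41.6 and 20.4 CPM in W330R-R181E, above WT at 3.53 and 0.769 CPM. Abcg1, a cholesterol exporter, had 2.82 and 5.62 CPM in W330R and 16.7 and 21.2 CPM in W330R-R181E, and 19.6 and 27.7 CPM in WT. The genotypes did not overlap for either gene, and the log2 increases were 4.67 (SE 0.71) and 2.24 (SE 0.32). Colgalt2, which adds galactose to collagen, had 0.256 and 0.372 CPM in W330R and 42.9 and 4.75 CPM in W330R-R181E, an increase carried mostly by replicate 1. Without the block, the adjusted p of these genes were 0.0868 for Itpr1, 0.0708 for Kcne2, 0.153 for Abcg1 and 0.21 for Colgalt2 (edgeR quasi-likelihood, Benjamini-Hochberg).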
